A study of Mus musculus with 12 samples.

Results

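The genes of the oxygen-sensing pathway that ends in hypoxia-inducible factor (HIF) were examined for histone H3 trimethylated at lysine 4 (H3K4me3), a mark of active promoters, in cardiomyocyte (CM) nuclei of adult mice. The set holds 10 genes, *Egln1*, *Egln2*, *Egln3*, *Vhl*, *Hif1an*, *Hif1a*, *Epas1*, *Hif3a*, *Arnt* and *Vegfa*, and its members were all peaks named after one of them, with the addition of a peak without a gene name that lies over the *Hif1a* promoter. This gave 9 of the 15848 peaks of the series, 1 for each gene other than *Hif3a*, after which no peak is named. All 9 passed the filter on low values, a mean of 10 normalized counts over the 6 libraries, as did 15039 peaks in all, and these were tested together.

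The study asked where H3K4me3 changes when CMs cannot bring long-chain fatty acids into mitochondria, and compared 3 H3K4me3 libraries of CtrlCre with 3 of Cpt1bcKO, while 6 input libraries were not used here. Cpt1bcKO mice were αMHC-Cre pos/+;Cpt1b fl/fl, so that *Cpt1b*, the muscle gene for the enzyme of that import step, was lost in CMs from embryonic stages on, and CtrlCre mice were αMHC-Cre pos/+;Cpt1b +/+. Both genotypes thus carry Cre, driven by a CM promoter, and nuclei were sorted from ventricles by staining for PCM1, a protein of the CM nuclear surface. The methods of the study state biological replicates for work in mice, but the labels only number the libraries and tie none to an animal, so p-values are read as measuring the spread between libraries. In sorted nuclei taken in bulk, fewer marked nuclei and less mark per nucleus cannot be told apart. By western blot of sorted nuclei, the paper reports a reduced level of H3K4me3 in Cpt1bcKO. Normalized counts are scaled between libraries, so a loss shared by all peaks cannot be seen in them. A peak given as higher or lower in Cpt1bcKO is so against the bulk of peaks, and absolute amounts were not tested.

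Cells sense oxygen through enzymes that hydroxylate the α-subunits of HIF. The prolyl hydroxylases PHD2, PHD1 and PHD3, encoded by *Egln1*, *Egln2* and *Egln3*, need oxygen, iron and α-ketoglutarate, and the hydroxyprolines they make are bound by VHL, which leads the α-subunit to degradation, while the asparaginyl hydroxylase FIH, encoded by *Hif1an*, blocks its contact with coactivators. When hydroxylation fails, the α-subunits pair with ARNT and raise glycolysis, vessel growth and, as feedback, *Egln3* and *Egln1* themselves.

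Libraries held between 763133 counts in peaks (CtrlCre replicate 2) and 2766416 (Cpt1bcKO replicate 2), and log2 values of any pair of libraries correlated with r between 0.914 and 0.967 across peaks. Of 12 CM markers 10 had a peak, and the 2 without were *Myl7* and *Nppa*, genes typical of atrial CMs. Over the 10 the summed level was 8344 to 9940 in CtrlCre and 6415 to 9235 in Cpt1bcKO. Among them *Mybpc3* was higher and *Myh6*, *Ryr2* and *Myl2* lower at an unadjusted p under 0.05 by limma. Their log2 differences, Cpt1bcKO minus CtrlCre, were 0.26, -0.39, -0.32 and -0.29. None of the 10 passed an adjusted p of 0.05. Of all genes, 6.03% were higher and 5.29% lower at the unadjusted p. None of 8 immune markers had a peak, and 1 of 8 fibroblast markers did (*Pdgfra*, 58 to 69 in CtrlCre against 56 to 63 in Cpt1bcKO). Of 10 endothelial markers 4 had a peak (*Cldn5*, *Esam*, *Flt1* and *Kdr*), with sums of 153 to 251 in CtrlCre and 169 to 190 in Cpt1bcKO. The markers *Cdh5*, *Egfl7*, *Emcn*, *Pecam1*, *Tek* and *Tie1* had none. The 4 of 7 mural cell markers with a peak summed to 163 to 261 in CtrlCre and 52 to 122 in Cpt1bcKO.

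The 9 peaks all lay over the start of a transcript of their gene. Positions are on mm10 (GRCm38), and distances refer to transcripts of GENCODE release M21. The widest was that of *Vegfa*, which encodes the vessel growth factor VEGF-A (chr17:46023813-46032836). It reached 8556 bases into the gene over 5 of the 7 exons of Vegfa-202, and lay at the 99.5th percentile of widths. The *Egln1* peak (chr8:124942407-124950777) ran 6917 bases into the gene and was 69.6% intronic, within the first intron. The *Hif1a* peak (chr12:73907145-73914698) ran from 759 bases before the start of Hif1a-201 to 6794 bases after it and was 94.4% intronic. That peak has no gene name in the table, and its centre is 9546 bases from the start of the annotated gene, which an upstream transcript sets.

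The other peaks were shorter. The *Epas1* peak (chr17:86752715-86756519) reached 2819 bases into the gene, and the *Egln3* peak (chr12:54200756-54203924) reached 3104 bases, with only 64 bases before the start. Shorter still were the peaks of *Egln2* (chr7:27165395-27167750), *Arnt* (chr3:95433815-95435549), *Hif1an* (chr19:44562434-44563733) and *Vhl* (chr6:113623548-113624807), which were 2355, 1734, 1299 and 1259 bases wide. By width, 6 of the 9 were above 2222 bases, the 75th percentile over tested peaks, and 0 were below 1030 bases, the 25th percentile. Every summit lay downstream of the start, from 51 bases (*Hif1an*) to 1068 bases (*Vegfa*).

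**Figure D1:**
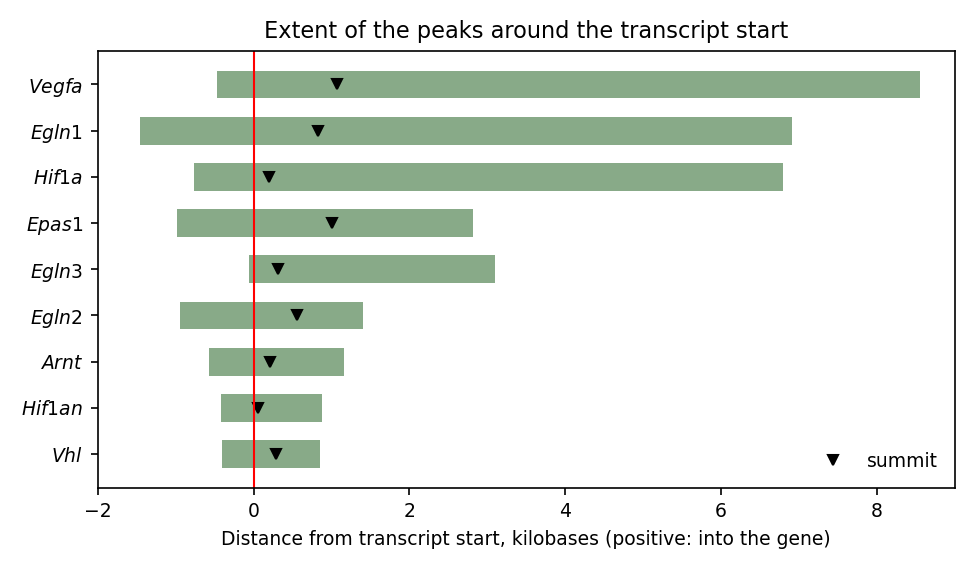
Extent of each of the 9 peaks (green bars) relative to the transcript start (red line) in kilobases, with positive values into the gene and a triangle at the summit. The *Vegfa*, *Egln1* and *Hif1a* peaks extend more than 6 kilobases into the gene, and the *Egln3* peak begins almost at the start.

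Per kilobase of peak, H3K4me3 was highest at *Epas1*, encoding HIF-2α, with a mean of 94.4 normalized counts (84.4 to 102 over the 6 libraries). *Arnt* (82.7), *Vhl* (74.5), *Vegfa* (74.1), *Hif1an* (73.1), *Egln3* (67.1), *Egln2* (62.8) and *Egln1* (61.6) followed, and *Hif1a* was lowest with 55.5 (48.1 to 69.5). The ranges over libraries overlapped for every pair of neighbours in this order. The median over the tested peaks was 60.5. By this measure a wider peak with the same total signal ranks lower, so the order depends in part on width. *Hif1a* lay at the 45.2th percentile per kilobase but at the 98.6th by total signal.

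The promoters of 3 of the genes are shown because *Hif1a* and *Egln3* are the members whose genotypes did not overlap, and because *Egln2* held the most matches to the core of the HIF binding motif. The sequences are the 250 bases before the RefSeq start on GRCm38.p6, written 5′ to 3′ on the strand of the gene. Capitals mark the core, ACGTG or GCGTG, on either strand, with overlapping matches drawn as 1 stretch. They lie at chr12:73907617-73907866 on the plus strand, at chr12:54203875-54204124 on the minus strand and at chr7:27166803-27167052 on the minus strand.
Hif1a: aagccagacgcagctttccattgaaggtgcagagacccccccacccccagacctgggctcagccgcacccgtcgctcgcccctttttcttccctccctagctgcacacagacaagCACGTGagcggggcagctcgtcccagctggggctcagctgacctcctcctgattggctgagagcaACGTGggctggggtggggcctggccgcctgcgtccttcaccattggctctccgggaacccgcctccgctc
Egln3: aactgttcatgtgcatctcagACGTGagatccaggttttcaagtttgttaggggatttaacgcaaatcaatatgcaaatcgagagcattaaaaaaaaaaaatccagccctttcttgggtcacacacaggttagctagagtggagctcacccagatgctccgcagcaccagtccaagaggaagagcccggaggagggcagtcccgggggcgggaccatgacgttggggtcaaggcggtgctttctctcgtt
Egln2: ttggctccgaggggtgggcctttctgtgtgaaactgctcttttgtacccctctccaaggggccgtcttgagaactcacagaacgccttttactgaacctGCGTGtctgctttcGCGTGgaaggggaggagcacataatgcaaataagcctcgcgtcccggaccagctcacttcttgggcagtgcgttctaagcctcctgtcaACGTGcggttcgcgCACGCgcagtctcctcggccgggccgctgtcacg
The *Hif1a* window holds 3 matches in 2 stretches, the first being the palindrome CACGTG, the *Egln3* window holds 1 match, 229 bases before the start, and the *Egln2* window holds 4. RefSeq windows were found for 8 of the 9 genes with a peak (not *Epas1*), of which 5 held a core. *Egln1* had 2 stretches and *Arnt* 1, and the windows of *Hif1an*, *Vegfa* and *Vhl* had 0. Of 32851 promoter windows of the same length, 38.6% held at least 1 stretch, 13.4% at least 2 and 1.42% at least 4. By CpG the 8 windows ranged from 10 (*Egln3*) to 51 (*Egln1*), all above the median of 6 over all windows. The 8 genes all have an H3K4me3 peak, while the 32851 windows were not chosen by the mark. Both cores contain a CpG, so these shares do not show a trait of the pathway. A match describes the letters in the window and not binding.

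Among the oxygen sensors, H3K4me3 at *Egln3* was lower in Cpt1bcKO in every library, and the peaks of *Egln1* and *Egln2* had differences near 0. Normalized counts at *Egln3*, which is strongly induced by hypoxia in many cells, were 250, 214 and 235 in CtrlCre replicates 1 to 3 and 202, 194 and 180 in Cpt1bcKO replicates 1 to 3. The highest Cpt1bcKO library was below the lowest CtrlCre library. The means were 233 ± 18.1 and 192 ± 11.1 (SD, n = 3 each). The log2 difference, Cpt1bcKO minus CtrlCre, was -0.28 (SE 0.10, 95% interval -0.49 to -0.07), with an unadjusted p of 0.0125 and an adjusted p of 0.195 by limma with Benjamini–Hochberg adjustment over the 15039 peaks. The difference did not pass the threshold of 0.05 on the adjusted p, and 960 tested peaks had a smaller p. Counting error was 5.79% to 10.4% of the value in single libraries, against a fold of 0.826.

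*Egln1*, which encodes PHD2, the main HIF prolyl hydroxylase in most cells, had 506, 497 and 545 normalized counts in CtrlCre and 538, 548 and 461 in Cpt1bcKO. The genotypes overlapped fully, with means of 516 ± 25.5 and 516 ± 47.6 and a log2 difference whose 95% interval ran from -0.21 to 0.20 (limma adjusted p = 0.995). *Egln2* (PHD1) had 157, 137 and 137 in CtrlCre and 140, 156 and 160 in Cpt1bcKO. These too overlapped, with a log2 difference of 0.08 (interval -0.15 to 0.32, limma adjusted p = 0.848).

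*Hif1an*, the FIH gene, had 108, 88 and 110 normalized counts in CtrlCre and 99, 83 and 82 in Cpt1bcKO. CtrlCre replicate 2, the shallowest library, lay among the Cpt1bcKO values, and the log2 difference was -0.21 (SE 0.15, interval -0.51 to 0.09, limma adjusted p = 0.614). *Vhl*, the substrate receptor of the ubiquitin ligase, had 88, 95 and 90 in CtrlCre and 98, 101 and 91 in Cpt1bcKO. Cpt1bcKO replicate 3 lay within the CtrlCre range, and the log2 difference was 0.09 (interval -0.20 to 0.37, limma adjusted p = 0.871).

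**Figure D2:**
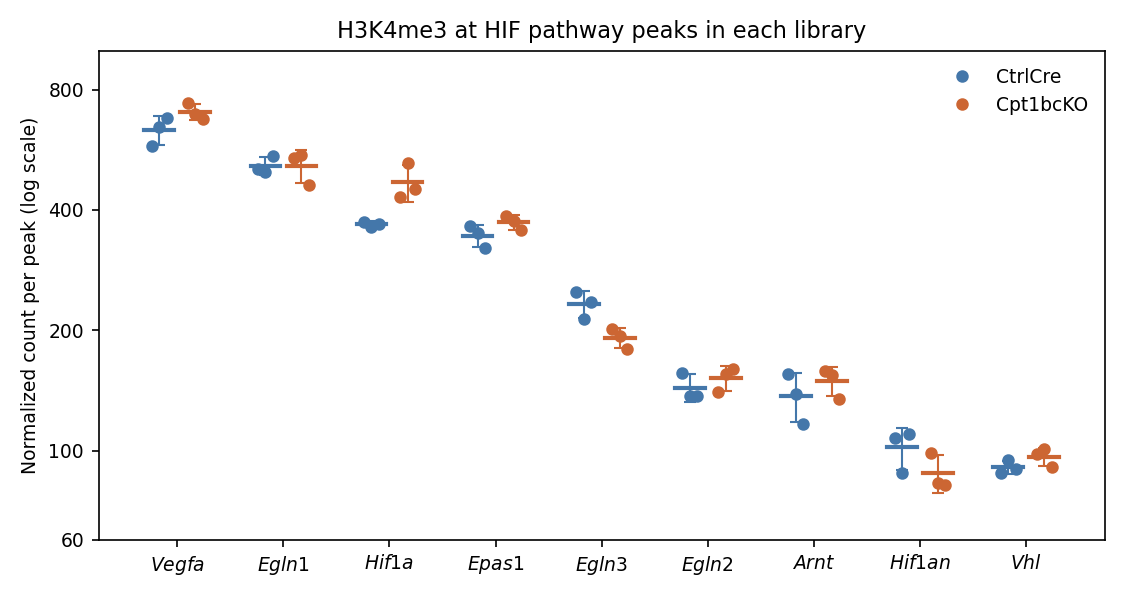
Normalized counts of the 9 peaks in each library on a log axis, CtrlCre in blue and Cpt1bcKO in orange, with horizontal lines at the means and bars of 1 SD (n = 3 libraries each). The points of the genotypes are apart at *Hif1a* (higher in Cpt1bcKO) and *Egln3* (lower), and overlap at the other 7 peaks.

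Among the HIF subunits, *Hif1a*, the gene of HIF-1α, had the larger values in Cpt1bcKO. Its promoter peak had 374, 363 and 370 normalized counts in CtrlCre and 431, 525 and 452 in Cpt1bcKO. The 3 CtrlCre libraries lay close together, Cpt1bcKO replicate 2 was highest, and the lowest Cpt1bcKO library was above every CtrlCre library. The means were 369 ± 5.57 and 469 ± 49.3 (SD, n = 3 each), a fold of 1.27, and the log2 difference was 0.34 (SE 0.10, interval 0.14 to 0.54). The unadjusted p was 0.00203 and the adjusted p 0.0605 by limma with Benjamini–Hochberg adjustment, above the threshold, and 504 tested peaks had a smaller p. With quantile normalization in place of the deposited scaling the adjusted p was 0.0268, and over the 13 alternatives it ranged from 0.0268 to 0.264. The antisense gene Gm15283 runs through the same region, but no annotated start of it lies within this peak.

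The other α-subunit gene with a peak and the gene of the common partner had smaller differences. *Epas1* (HIF-2α) had 364, 351 and 321 in CtrlCre and 387, 376 and 356 in Cpt1bcKO, which overlapped in a narrow range (log2 difference 0.11, interval -0.08 to 0.31, limma adjusted p = 0.705). *Arnt*, the common β-subunit, had 156, 139 and 117 in CtrlCre and 158, 155 and 135 in Cpt1bcKO (log2 difference 0.13, interval -0.13 to 0.38, limma adjusted p = 0.757). In both genes the highest library was Cpt1bcKO and the lowest CtrlCre, but the differences were within the spread of the libraries.

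*Hif3a*, which encodes a HIF-α paralogue with an inhibitory splice form, has no named peak. Of 4 annotated transcript starts of *Hif3a*, 3 lay 5240 to 5621 bases from any peak. The remaining start lay within an unnamed peak of 903 bases (chr7:17055903-17056806) that carries the identifier of 4833404L02Rik, a gene model on the opposite strand. This peak, which is no member and was looked up after the data had been seen, had 46, 67 and 54 normalized counts in CtrlCre and 26, 36 and 31 in Cpt1bcKO. All CtrlCre libraries were above all Cpt1bcKO libraries, with a log2 difference of -0.82 (SE 0.24, interval -1.31 to -0.33). The unadjusted p was 0.00231 and the adjusted p 0.0660 by limma, and the mark cannot be assigned to either strand.

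The VEGF-A gene, the target through which HIF is best known, had 577, 644 and 680 normalized counts in CtrlCre and 739, 694 and 676 in Cpt1bcKO. Cpt1bcKO replicate 3 lay below CtrlCre replicate 3, so the genotypes overlapped, and the log2 difference was 0.15 (SE 0.10, interval -0.06 to 0.36, limma adjusted p = 0.591). *Vegfa* had the highest total signal of the 9 peaks, in which its width has a part.

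Counted together, 0 of the 9 peaks passed an adjusted p of 0.05 by limma, against 2.93% of all tested peaks (1.11% higher and 1.82% lower in Cpt1bcKO). By limma-voom on the counts recovered from the deposited values the number was also 0. At an unadjusted p under 0.05 there were 2, *Hif1a* higher and *Egln3* lower (3 by limma-voom, with *Hif1an* lower), against 12.8% of all tested peaks (5.84% higher and 6.98% lower). The same 2 were the members whose genotypes did not overlap, against 16.3% of tested peaks (7.8% higher and 8.46% lower). Of the 9 differences 6 were positive and 3 negative, and their median was 0.09 on the log2 scale beside 0.0057 over all tested peaks. The standard errors of 0.09 to 0.15 set what these libraries could show, so that the absence of a call at the other 7 genes does not show that their levels were equal.

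**Figure D3:**
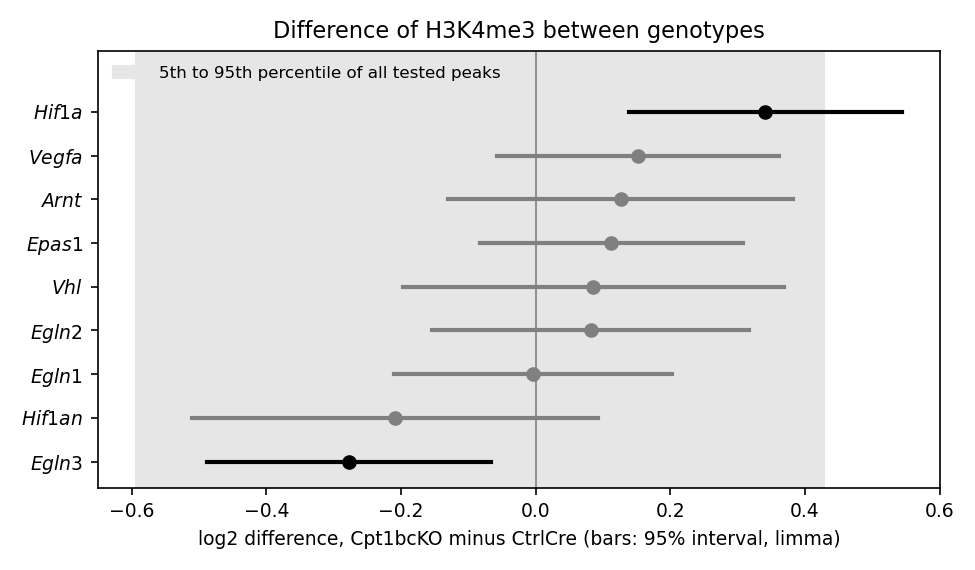
Log2 difference (Cpt1bcKO minus CtrlCre) of each peak with its 95% interval from limma, black where the unadjusted p was under 0.05. The grey band spans the 5th to 95th percentile of the differences of all tested peaks (-0.59 to 0.43), and all 9 estimates lie within it.

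Because libraries differ in depth and efficiency, the peaks were also set against each other within each library. The ratio of *Egln3* to *Egln1* was 0.494, 0.431 and 0.431 in CtrlCre and 0.375, 0.354 and 0.390 in Cpt1bcKO. The ratio of *Egln3* to *Egln2* was 1.59, 1.56 and 1.72 in CtrlCre and 1.44, 1.24 and 1.13 in Cpt1bcKO. Relative to either of the other prolyl hydroxylase genes, *Egln3* was thus lower in each Cpt1bcKO library than in any CtrlCre library. Both ratios reuse the *Egln3* values above, which already did not overlap, and are given as a description.

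The ratio of *Hif1a* to *Egln3* was 1.50, 1.70 and 1.57 in CtrlCre and 2.13, 2.71 and 2.51 in Cpt1bcKO, with means of 1.59 ± 0.10 and 2.45 ± 0.29 (SD, n = 3). This ratio joins the members with the largest differences in opposite directions and is given as a description. The ratio of *Hif1a* to *Epas1* was 1.03, 1.03 and 1.15 in CtrlCre and 1.11, 1.40 and 1.27 in Cpt1bcKO, and here the genotypes overlapped, as they did for *Hif1an* to *Vhl* (0.926 to 1.23 against 0.822 to 1.01).

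**Figure D4:**
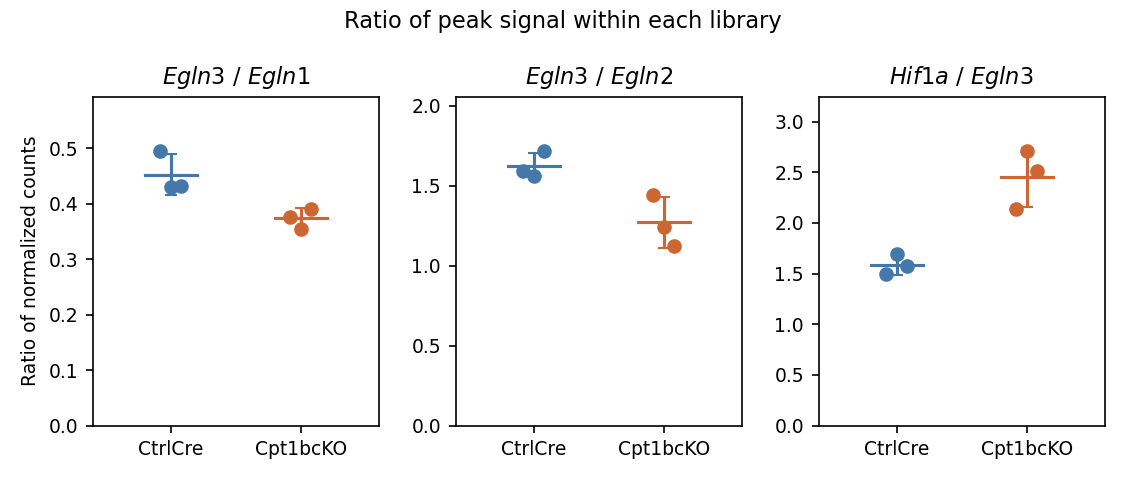
Ratio of the normalized counts of pairs of peaks in each library, CtrlCre in blue and Cpt1bcKO in orange, with lines at the means and bars of 1 SD (n = 3). *Egln3* was lower relative to *Egln1* and *Egln2* in every Cpt1bcKO library, and the ratio of *Hif1a* to *Egln3* averaged 1.59 in CtrlCre and 2.45 in Cpt1bcKO.

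Further peaks lay in or beside these loci and were examined after the data had been seen. A peak of 2381 bases (chr12:73947726-73950107) begins 196 bases past the 3′ end of *Hif1a* and covers an annotated transcript start. It carries the identifier of Gm15283, the RNA that runs antisense through the gene, and also overlaps Gm49321. It had 59, 51 and 88 normalized counts in CtrlCre and 28, 21 and 22 in Cpt1bcKO. Every Cpt1bcKO library was below every CtrlCre library. The log2 difference was -1.41 (SE 0.26, limma adjusted p = 0.00176, and 0.000673 to 0.0336 over 12 alternatives). The mark of this peak cannot be assigned to Gm15283 or to Gm49321. A small intronic peak of *Egln3* (chr12:54191807-54192615), 11245 bases from the nearest start, had 24, 16 and 34 in CtrlCre and 20, 21 and 19 in Cpt1bcKO, with a log2 difference of -0.23 (SE 0.34, limma adjusted p = 0.861).

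Across the 6 libraries the peaks whose pattern was most like *Egln3* were those of *Ppm1k* (Pearson r = 0.998), which encodes the mitochondrial phosphatase that activates branched-chain α-ketoacid dehydrogenase, 8430408G22Rik (0.989) and *Ralgapa2* (0.984), out of 9326 named peaks with a mean of at least 50. For *Hif1a* these were *Lars* (0.987), a leucyl-tRNA synthetase gene, *C2cd3* (0.986) and *Hrsp12* (0.985), out of 9327. The 6 points of each correlation differ by genotype and by depth, and the values are a description of these libraries.

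Regulators of HIF other than the members were followed in a list of 38 genes, of which 35 had a tested peak, each gene being represented by its strongest peak. None passed an adjusted p of 0.05 by limma in either direction, against 2.22% of all genes with a tested peak. At an unadjusted p under 0.05, 4 were higher and 2 lower in Cpt1bcKO, against 11.3% of all genes (6.03% higher and 5.29% lower). *Hsp90aa1*, the chaperone that holds HIF-1α, had 155, 126 and 157 in CtrlCre and 162, 182 and 199 in Cpt1bcKO (log2 difference 0.31). The coactivator gene *Ep300* had a log2 difference of 0.22 and *Rack1*, which promotes oxygen-independent degradation of HIF-1α, 0.23. On the lower side were *P4htm*, a transmembrane prolyl hydroxylase, with a log2 difference of -0.37, and *Cited2*, the protein that competes with HIF-1α for p300, with -0.22. *Cited2* had 499, 421 and 466 in CtrlCre and 390, 402 and 398 in Cpt1bcKO. The median over the list was -0.02 beside 0.02 over all 11067 genes.

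Known HIF targets were followed in 5 lists with 93 genes, of which 71 were tested. H3K4me3 was higher in Cpt1bcKO at 4 of them (adjusted p under 0.05 by limma) and lower at 0, against 0.967% and 1.26% of all genes. The lists were chosen with earlier results of these data known, so these counts are a description and enrichment was not tested. At an unadjusted p, 8 were higher and 4 lower, against 6.03% and 5.29% of all genes. The median log2 difference was 0.07 beside 0.02 over all genes, and 42 of the 71 differences were positive, as were 6098 of the 11067 over all genes. The 4 called genes belong to lipid handling, survival and vessel signalling.

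*Angptl4*, an inhibitor of lipoprotein lipase that both HIF and the fatty acid receptors of the PPAR family induce, had 60, 98 and 61 in CtrlCre and 153, 190 and 222 in Cpt1bcKO. The log2 difference was 1.38 (SE 0.17, limma adjusted p = 1.6e-05), and no library of the genotypes overlapped. *Plin2*, a coat protein of lipid droplets that is likewise induced by both, had 103, 100 and 110 in CtrlCre and 135, 155 and 151 in Cpt1bcKO. Its log2 difference was 0.49 (SE 0.12, limma adjusted p = 0.0236), and the adjusted p was 0.0929 without CtrlCre replicate 1, 0.131 without Cpt1bcKO replicate 2 and 0.112 without Cpt1bcKO replicate 3. *Bcl2*, which blocks apoptosis at mitochondria, had 133, 135 and 96 in CtrlCre and 198, 201 and 225 in Cpt1bcKO. Its log2 difference was 0.79 (SE 0.13, limma adjusted p = 0.000559) with no overlap. *Pdgfb*, a growth factor for mural cells, had 76, 63 and 62 in CtrlCre and 92, 99 and 117 in Cpt1bcKO, with a log2 difference of 0.61 (SE 0.16, limma adjusted p = 0.0333), and kept its call in 1 of the 6 fits that left out a library.

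**Figure D5:**
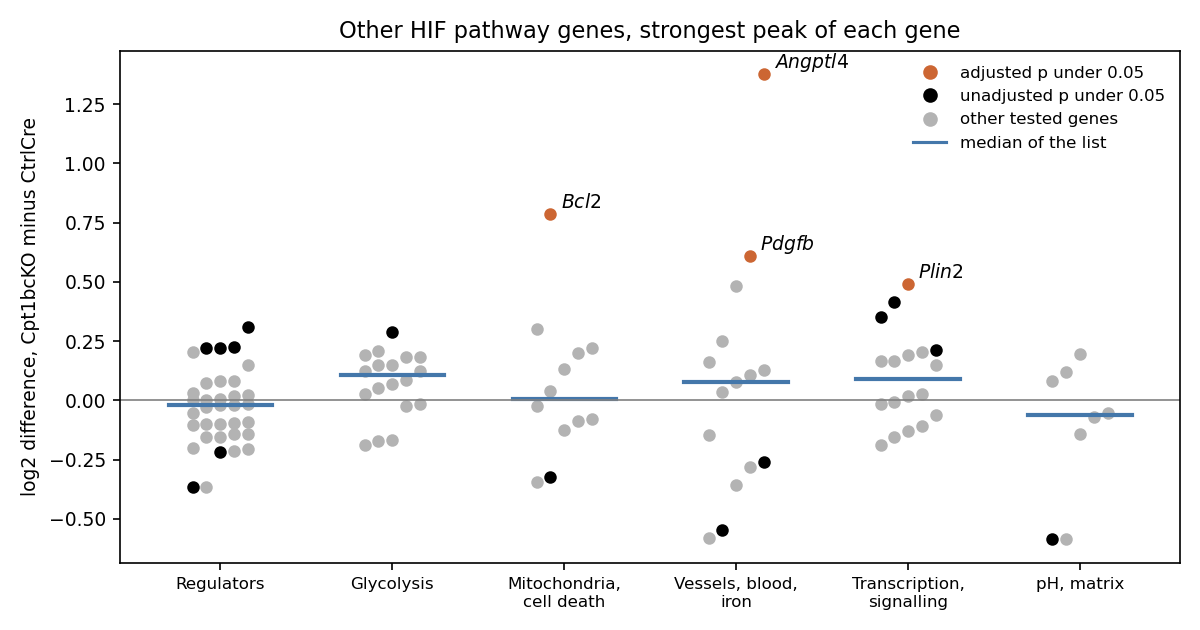
Log2 difference (Cpt1bcKO minus CtrlCre) at the strongest peak of each tested gene, in 1 list of regulators and 5 lists of targets, with the median of each list as a blue line. The 4 genes with an adjusted p under 0.05 (orange, named) all lie above 0, and the list medians lie between -0.06 and 0.11.

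The glycolytic targets, the program most closely tied to HIF-1α, held no call in 18 tested genes. *Eno1* (enolase) had 272, 300 and 280 in CtrlCre and 330, 363 and 347 in Cpt1bcKO, apart in every library, with a log2 difference of 0.29 (limma adjusted p = 0.122), and was the only one with an unadjusted p under 0.05. *Ldha* (lactate dehydrogenase A) had 211, 205 and 246 in CtrlCre and 180, 196 and 203 in Cpt1bcKO. These did not overlap either, with a log2 difference of -0.19 (limma adjusted p = 0.472). The list median was 0.11, with 13 of 18 differences positive.

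Of 12 tested targets in mitochondria, autophagy and cell death only *Bcl2* passed. *Ddit4* (REDD1), which restrains mTORC1, had 350, 377 and 315 in CtrlCre and 263, 296 and 271 in Cpt1bcKO. These did not overlap, with a log2 difference of -0.33 (SE 0.10) and a limma adjusted p of 0.0835. The mitophagy receptor gene *Bnip3* had a log2 difference of -0.08 (limma adjusted p = 0.874) and the proapoptotic *Bcl2l11* one of -0.13 (limma adjusted p = 0.660). *Bcl2l11* had 305, 267 and 271 in CtrlCre and 256, 258 and 257 in Cpt1bcKO, which did not overlap.

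In the list for vessels, blood and iron, with 15 tested genes, *Angptl4* and *Pdgfb* passed and 2 others were lower at an unadjusted p. *Adm*, the vasodilator adrenomedullin, had 178, 188 and 186 in CtrlCre and 151, 153 and 156 in Cpt1bcKO, with little spread in either (log2 difference -0.26, limma adjusted p = 0.245). *Kdr*, the endothelial VEGF receptor, had 39, 91 and 64 against 31, 45 and 51, with a log2 difference of -0.55 (limma adjusted p = 0.382). *Kdr* is also among the endothelial markers whose sums are given above. The others with a peak had log2 differences of 0.49 (*Cldn5*), -0.15 (*Flt1*) and -0.22 (*Esam*). The mural marker *Acta2* had a log2 difference of -2.23 (limma adjusted p = 7.4e-05), beside -1.05 (*Cspg4*), -0.72 (*Myh11*) and -0.006 (*Kcnj8*). The part of other cell types in the values of this list was not tested.

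Among 18 tested targets in transcription, signalling and chromatin, *Plin2* passed, and the median was 0.09. *Ndrg1* had 97, 81 and 126 in CtrlCre and 136, 122 and 143 in Cpt1bcKO (log2 difference 0.42, limma adjusted p = 0.162). *Bhlhe41*, a circadian repressor, had a log2 difference of 0.35 (limma adjusted p = 0.235), with 374, 305 and 493 against 428, 585 and 467, so the genotypes overlapped. Of 8 tested genes of pH control and extracellular matrix none passed. *Col5a1*, a fibrillar collagen gene, had 44, 51 and 33 in CtrlCre and 29, 33 and 22 in Cpt1bcKO (log2 difference -0.59, limma adjusted p = 0.352).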

How the data were processed

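H3K4me3 ChIP–seq libraries of sorted CM nuclei, 3 per genotype, were grouped by genotype and replicate number from their titles. The authors trimmed reads with Trimmomatic 0.39, aligned them to mm10 with STAR 2.6.1d, removed duplicates with Picard 2.21.7, called peaks with MUSIC and merged them into a union set. Union peaks span both genotypes, and size factors hide a change shared by all peaks. The authors took counts in union peaks with bigWigAverageOverBed. The deposited value of each library is such a count divided by the DESeq2 1.26.0 size factor and rounded by the authors, and was treated as a score. The deposited mean signal of each genotype is not rounded, and with it the counts before scaling and rounding could be recovered for 15848 of 15848 peaks. They serve for depth, counting error and limma-voom, and a floor of 3 counts equals 1.95 to 6.97 normalized counts. Counting error and floor take these counts as independent reads, which was not tested. Intervals come from limma and reflect the spread between libraries, of which counting error is a part. The floor comes from counts and covers counting error only. The deposited log2 fold changes and p-values are the authors' own comparison and were not used, nor was the deposited fraction of each peak in the gene body.

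Peaks with a mean of at least 10 were tested (809 were left out) with limma 3.58.1 in R 4.3.3, with a trend, on log2(value + 1), genotype alone in the design, two-sided, with Benjamini–Hochberg adjustment over all tested peaks. This scale understates differences of low peaks. Annotation came from GENCODE M21 and promoters from RefSeq. The limma fit was tested on simulated data with known differences. These were larger than the differences of the members, so the simulation does not cover differences of that size. Genes in lists were represented by their peak with the highest mean. All members are named, with list genes that passed an adjusted p of 0.05, up to 3 genes per list and direction with the smallest unadjusted p under 0.05, and *Bcl2*, *Bnip3*, *Bcl2l11* and the HIF target *Ldha*, which are genes named in the study. Members and lists were chosen with earlier results of these data known. Same-numbered libraries deviated from their genotype means with correlations of 0.0759, -0.0812 and 0.105, so the numbers were not taken as pairs.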

Additional observations from a re-analysis of the deposited data

How the results depend on the processing

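The calls were recomputed with a pseudocount of 5, no filter, a mean of at least 50, scaling to total signal, quantile normalization, limma-voom, a replicate block and each library left out. The number of members with an adjusted p under 0.05 was 1 under quantile normalization, where *Hif1a* (0.33 on the log2 scale, adjusted p = 0.0268 by limma) passed, and 0 under the other alternatives. At an unadjusted p it was 1 to 3 with 1 library left out, and 1 without CtrlCre replicate 1 or Cpt1bcKO replicate 3. The number was 3 without CtrlCre replicate 2, where *Hif1an* (-0.31, unadjusted p = 0.0449 by limma) joined. It was also 3 under quantile normalization, where *Vegfa* (0.20, unadjusted p = 0.0239 by limma) joined. The *Hif1a* difference ranged from 0.26 to 0.40 and had an unadjusted p under 0.05 in 13 of 13 alternatives. For *Egln3* the difference ranged from -0.34 to -0.22, with an unadjusted p under 0.05 in 11 of 13. The *Egln1* difference, near 0, changed sign to 0.034 under quantile normalization and ranged from -0.050 to 0.075 with 1 library left out, above 0 without CtrlCre replicate 3 (0.036) or Cpt1bcKO replicate 3. That of the intronic *Egln3* peak, an addition made after seeing the data, ranged from -0.50 to 0.026 and was above 0 without CtrlCre replicate 3. Regulators numbered 2 to 5 at an unadjusted p with 1 library left out, beside 6 with all. Called targets numbered 2 to 5 beside 4, with 2 without Cpt1bcKO replicate 2 or replicate 3, and called peaks 229 to 431 beside 441. The causes were not tested.

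Replicate numbers did not pair the libraries. With the replicate block the adjusted p was 0.141 for *Hif1a* and 0.269 for *Egln3* by limma, 0 members, 3 targets and 370 peaks were called, and *Pdgfb* (adjusted p = 0.0566) was not. In the shallowest library counting error at the members was 6.01% to 16.2% of the value.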
